A study of Mus musculus with 96 samples.

Results

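Levels of 10 genes whose proteins coat lipid droplets, join them or control the release of fat from them were measured in liver and islets of mice on a high-fat diet. They are the perilipins Plin2, Plin3, Plin4 and Plin5, the CIDE genes Cidea, Cideb and Cidec, the triglyceride lipase gene Pnpla2 and the lipase inhibitor genes G0s2 and Hilpda. The genes were taken by their symbols and make up 10 of the 21990 genes listed. Of the mice, 24 were on a high-fat diet (HFD, 60% fat) and 24 on chow (CD, 13.5% fat), and each gave an islet and a liver library. At each of weeks 4, 8, 12, 16, 20 and 24 of feeding, 4 mice per diet were collected. All mice were male C57BL/6N bought at an age of 4 weeks, so that week and age rise together, and the feeds come from different makers and differ in more than fat. Islets were picked by hand after collagenase digestion, liver was taken from the same region of each animal, and no genetic change is named for any mouse.

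Lipid droplets store triglyceride inside a single layer of phospholipid. Perilipins sit on that surface and govern access of lipases. CIDE proteins gather at contacts between droplets and move lipid from the smaller to the larger one, and in liver the CIDEB protein also acts in very low density lipoprotein assembly. ATGL, the product of Pnpla2, takes the first fatty acid off triglyceride, and the products of G0s2 and Hilpda inhibit it. In healthy liver PLIN2 is a main droplet coat, while Cidea and Cidec (also called Fsp27) are best known from adipocytes and are induced in fatty liver.

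Expression is given as FPKM (fragments per kilobase of transcript, scaled to the mapped fragments of the library), a level per transcript length. The number of reads behind a value is not in the table, so its counting error is unknown. Differences are HFD minus CD on the log2(FPKM + 1) scale with the standard error from limma, which understates changes of genes near 1 FPKM. A gene was tested where 4 or more libraries of a fit reached 1 FPKM. A gene is called at an adjusted p under 0.05, adjusted by Benjamini-Hochberg over all genes tested. The tissues carried their own markers. The summed level of 8 hepatocyte markers was 33180 to 77455 FPKM in liver and 254 to 1076 FPKM in islets. The islet sum was mostly Ttr (median 832 FPKM in CD and 562 FPKM in HFD), while the median of Alb was 0.58 and 2.78 FPKM there. It is therefore not a measure of hepatocytes in the islets. The insulin genes Ins1 and Ins2 made up 53.7% to 75.1% of the FPKM of the islet libraries. In 2 liver libraries, of the CD mice CD306 and CD407, 8 beta cell markers summed to 3699 and 2524 FPKM, and results of liver that change without them are given in both ways. In bulk tissue, fewer cells of a type and less RNA per cell cannot be told apart.

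In liver, Cidea, Cidec and Plin4 had the largest differences between the diets. Averaged over the 6 weeks, 7 of the 10 genes rose on HFD and 0 fell, against a background of 35.8% of all tested genes called higher. Cidea differed by 3.59 ± 0.22 (adjusted p = 1.21e-15), Cidec by 3.10 ± 0.23 (adjusted p = 2.1e-13) and Plin4 by 1.33 ± 0.15 (adjusted p = 6.98e-09). Smaller rises were called for Hilpda (0.64 ± 0.13), Plin2 (0.63 ± 0.14), Plin3 (0.49 ± 0.06) and Cideb (0.22 ± 0.04). Plin5 (0.13 ± 0.11, adjusted p = 0.314) and Pnpla2 (-0.08 ± 0.11, adjusted p = 0.561) did not pass the test. G0s2 lay at the threshold (0.47 ± 0.19, adjusted p = 0.0506). It passed when CD306 and CD407, the 2 livers with the most beta cell markers, were left out (0.52, adjusted p = 0.0300). It also passed without any 1 of 14 of the 48 mice. Cidea was tested here only through the HFD livers, since 3 CD and 19 HFD libraries reached 1 FPKM. Its p therefore describes how high the HFD livers were and adds no support of its own, and its place among the 7 does not either.

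By week, 0 of 7 tested genes were called in liver at week 4, where 0.0506% of all genes were. No member passed an unadjusted p of 0.05 there, where 1271 of all genes did. Week 8 had 3 of 9 called higher (background 6.17%) and week 12 had 3 of 10 (9.42%). Calls numbered 5 of 10 at week 16 (6.74%), 4 of 10 at week 20 (1.73%) and 1 of 10 at week 24 (0.65%). With all mice, no member was called lower in liver at any week. With 4 mice per group, many of these weekly calls rest on single mice, and those are named with each gene below. Some genes were tested only because the HFD livers reached 1 FPKM, with fewer than 4 CD livers at that level. These were Cidea at weeks 12 to 24, Cidec at weeks 8 to 24, Plin4 at weeks 8 and 20, and Hilpda at week 4, where it was not called. The HFD livers thus decided that the gene was tested, and its p at that week describes how high the HFD livers were and adds no support of its own. The weekly counts above include these genes, and the 1 call at week 24 is Cidea. Part of the distance of the counts from the background thus has the same source.

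**Figure D1:**
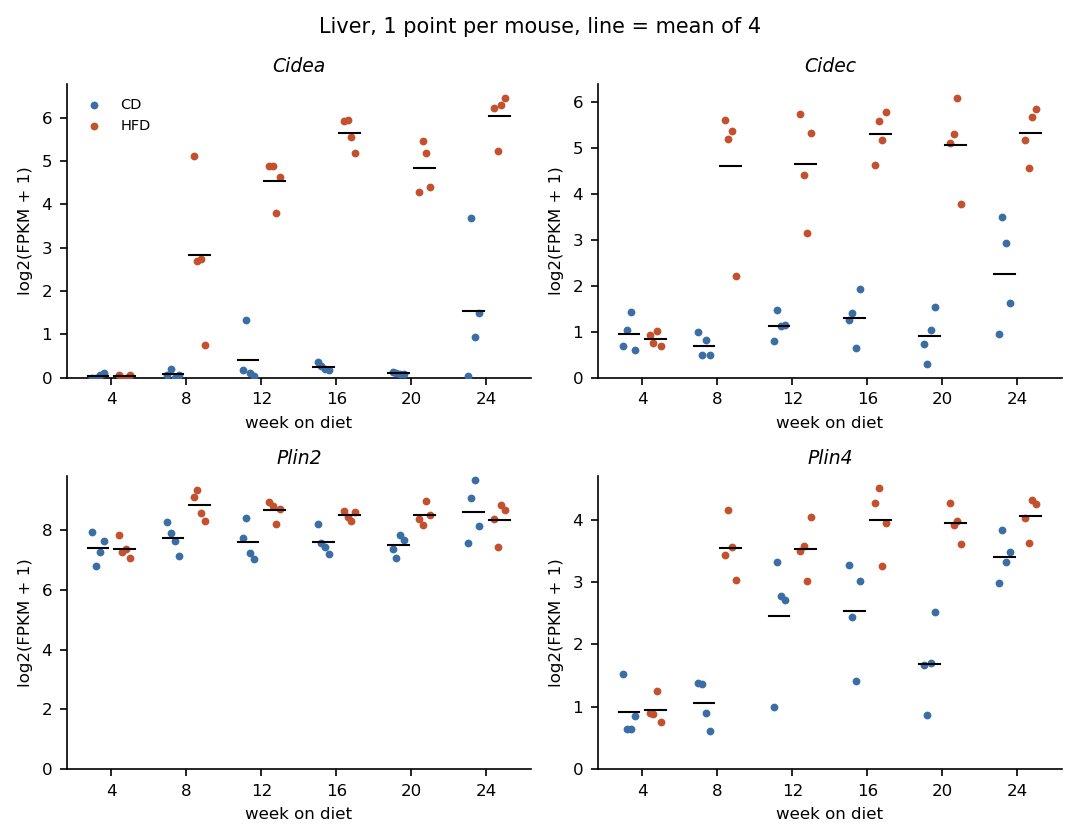
Liver levels of Cidea, Cidec, Plin2 and Plin4 as log2(FPKM + 1) against week on diet, with 1 point per mouse (CD blue, HFD orange) and a line at the mean of 4. At week 4 the diets overlap in all 4 panels, and from week 8 on the HFD points of Cidec lie above the CD points, whose highest values are those of CD605 and CD606 at week 24.

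Promoter sequence was available for 9 of the 10 genes, from RefSeq on GRCm38.p6, with 12 promoters in all. Both strands were searched from 250 bases before the transcription start to 50 bases after it for exact strings of letters. These were the DR1 element bound by PPAR and RXR (AGGTCA repeated after 1 free base) and its repeated unit AGGTCA alone. The others were ACGTG, 1 form of the HIF core, and the palindrome CACGTG, whose letters hold ACGTG. Other forms of the HIF core, such as GCGTG, and inexact forms of DR1 were not searched and are not marked below. Over 32851 promoters, the shares with a match were 0.0396%, 16.3%, 19.6% and 7.15%. None of the 12 held the exact DR1 letters. With a share of 0.0396% over all promoters, no match was to be awaited in 12, so the absence does not show that PPAR sites are lacking. The Plin2 and Hilpda promoters are printed because they hold matches, and those of Cidec and Plin4 because these genes moved most among those with a promoter. Each runs 5′ to 3′ from 250 bases before the start to 30 bases after it, with matches in capitals.
Plin2, chr4:86670030-86670309, minus strand: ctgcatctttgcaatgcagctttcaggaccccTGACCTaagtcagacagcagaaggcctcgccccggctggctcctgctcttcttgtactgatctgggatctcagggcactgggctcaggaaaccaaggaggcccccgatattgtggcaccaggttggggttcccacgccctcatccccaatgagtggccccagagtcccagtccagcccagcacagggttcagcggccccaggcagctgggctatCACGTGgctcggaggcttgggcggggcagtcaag
Hilpda, second promoter, chr6:29272376-29272655, plus strand: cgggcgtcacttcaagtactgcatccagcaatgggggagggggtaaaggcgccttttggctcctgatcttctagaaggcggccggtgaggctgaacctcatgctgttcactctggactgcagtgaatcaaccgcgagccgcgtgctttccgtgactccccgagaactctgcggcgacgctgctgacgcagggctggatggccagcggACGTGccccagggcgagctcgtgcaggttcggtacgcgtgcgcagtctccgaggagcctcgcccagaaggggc
Cidec, second promoter, chr6:113435731-113436010, minus strand: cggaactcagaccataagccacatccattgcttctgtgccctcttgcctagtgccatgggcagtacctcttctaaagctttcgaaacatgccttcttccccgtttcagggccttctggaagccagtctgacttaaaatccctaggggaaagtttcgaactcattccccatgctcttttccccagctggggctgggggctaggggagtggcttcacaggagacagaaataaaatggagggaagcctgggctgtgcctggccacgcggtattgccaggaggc
Plin4, chr17:56109753-56110032, minus strand: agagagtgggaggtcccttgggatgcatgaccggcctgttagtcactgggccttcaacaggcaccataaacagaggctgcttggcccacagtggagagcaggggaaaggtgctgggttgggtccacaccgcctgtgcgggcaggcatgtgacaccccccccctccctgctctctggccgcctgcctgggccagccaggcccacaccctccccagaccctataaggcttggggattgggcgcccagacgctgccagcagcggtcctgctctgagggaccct
In Plin2, TGACCT is the repeated unit read on the other strand, with its first base at position -218 from the start, and CACGTG spans the start, with its first base at position -4. The Hilpda match is ACGTG with its first base at position -43. Each of the 2 promoters of Plin5 holds an AGGTCA, at positions -170 and 14. The promoters of Cidec, Plin4, Plin3, Cideb, G0s2 and Pnpla2 hold none of these letters in the window. A match is a string of letters and does not show binding.

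Plin2, on chromosome 4 (86626852 to 86670059, minus strand), encodes the perilipin that coats droplets in most cell types. It had the highest mean of the 10 genes in liver, at 241 ± 153 FPKM in CD and 356 FPKM in HFD (SD over mice, n = 24). In CD that mean includes CD605 and CD606 at 545 and 818 FPKM, and Plin2 was above Cideb in 10 of 24 CD livers. At week 4 its values were 244, 111, 153 and 199 FPKM in CD and 227, 153, 164 and 133 FPKM in HFD, a full overlap. At week 8 the CD livers held 309, 239, 200 and 141 FPKM and the HFD livers 556, 654, 379 and 315.39 FPKM. The groups did not overlap at week 8, yet the difference of 1.09 ± 0.29 missed the threshold (adjusted p = 0.0591), and it passed without CD203 or HFD217 (lowest adjusted p = 0.0268). At week 16 CD was 293, 188, 171 and 145 FPKM and HFD 396, 352, 314 and 395 FPKM, a called difference of 0.91 ± 0.19 (adjusted p = 0.0242). At week 20 CD was 164, 134, 230 and 204 FPKM and HFD 335, 287, 500.51 and 361 FPKM, also called (1.01 ± 0.20, adjusted p = 0.034). The groups were apart at both weeks. The week 16 call was lost without CD403, CD405, CD407, HFD414 or HFD418 (adjusted p up to 0.0766), and the week 20 call without CD501, CD502, CD507, HFD511 or HFD517 (adjusted p up to 0.101).

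At week 24 Plin2 overlapped between the diets. The HFD livers were at 331, 175, 462 and 408 FPKM, and the CD livers at 192, 545, 818 and 280 FPKM. The highest Plin2 value of all 48 livers was thus in a CD mouse (CD606), and the difference was -0.28 ± 0.47 (adjusted p = 0.839). Leaving out 1 mouse gave -0.63 to 0.07, with the highest value without CD606, so its sign rests on single mice. Week 12 was between (CD 212.5, 338, 149 and 132 FPKM, HFD 496, 450, 294 and 420 FPKM), with a difference of 1.07 ± 0.29 (adjusted p = 0.0521) that passed without CD306 or HFD316 (lowest adjusted p = 0.0184). A second row of the table carries the symbol Plin2. By its identifier it is Gm12551 in RefSeq, a transcribed pseudogene within the Plin2 locus, and its mean level was 0.287 FPKM in CD and 0.495 FPKM in HFD livers. Reads of Plin2 and its copy may have been divided between these rows, and only the row of Plin2 itself was used as the member.

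Plin3 (chromosome 17, 56278962 to 56290511, minus strand) encodes the perilipin that moves from the cytosol to newly formed droplets. Its liver level rose by less than 1 log2 unit but with little spread, from 16.9 ± 3.01 FPKM in CD to 24.0 FPKM in HFD. At week 16 the CD livers held 15.2, 13.5, 15.6 and 16.3 FPKM and the HFD livers 19.8, 21.9, 26.3 and 24.8 FPKM, and the groups did not overlap (0.58 ± 0.11, adjusted p = 0.011). This call was made in 8 of 8 fits that left out 1 mouse. At week 12 CD was 18.1, 16.6, 11.1 and 11.6 FPKM and HFD 27.6, 26.3, 22.0 and 20.5 FPKM, called at 0.73 ± 0.17 (adjusted p = 0.0273). That call was lost without CD307, CD308, HFD313, HFD315 or HFD318 (adjusted p up to 0.0839). At week 20 the groups were also apart (CD 14.3 to 20.2 FPKM, HFD 22.3 to 31.0 FPKM), with 0.59 ± 0.13 and adjusted p = 0.0508, which passed without HFD518 (adjusted p = 0.0233).

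Plin4 and Plin5 lie next to each other on chromosome 17, Plin4 at 56100587 to 56109953 and Plin5 at 56111597 to 56117606, both on the minus strand. Plin4 encodes a perilipin known from adipocytes and muscle. At week 4 its liver level was 0.56 to 1.87 FPKM in CD and 0.68 to 1.37 FPKM in HFD. At week 8 the CD livers were at 1.61, 1.59, 0.86 and 0.53 FPKM and the HFD livers at 9.79, 16.8, 10.9 and 7.16 FPKM. Every HFD value was above every CD value, and the difference was 2.48 ± 0.26 (adjusted p = 0.00241). At week 20 CD was 2.19, 0.83, 2.27 and 4.72 FPKM and HFD 18.3, 14.1, 14.7 and 11.2 FPKM (2.25 ± 0.31, adjusted p = 0.0104). Both calls were made in 8 of 8 fits that left out 1 mouse. At the other weeks the CD livers came closer. At week 12 CD reached 9.06 FPKM and HFD started at 7.11 FPKM (1.08 ± 0.49, adjusted p = 0.183), at week 16 CD reached 8.70 FPKM and HFD started at 8.54 FPKM (1.46 ± 0.44, adjusted p = 0.0969), and at week 24 CD was 6.93, 13.3, 8.99 and 10.2 FPKM and HFD 15.4, 11.4, 18.9 and 18.1 FPKM (0.65 ± 0.20, adjusted p = 0.147).

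Plin5 encodes the perilipin that ties droplets to mitochondria in tissues that oxidize fat. Its liver level differed between the diets at week 8 only among the 6 weekly tests, with 19.3, 23.9, 17.2 and 13.0 FPKM in CD and 32.7, 39.8, 25.3 and 28.1 FPKM in HFD. The groups did not overlap there (0.76 ± 0.19, adjusted p = 0.0463), but the call was lost without CD203, CD207, CD208, HFD211, HFD212 or HFD213 (adjusted p up to 0.12). At week 24 its mean was 38.4 ± 10.7 FPKM in CD and 29.7 ± 4.73 FPKM in HFD (SD, n = 4; -0.33, adjusted p = 0.468). At week 12 the difference was -0.11 and became a call in the lower direction without CD304 (-0.42, adjusted p = 0.0363). At week 20 it was 0.57 (adjusted p = 0.297) and was called without CD507 (0.83, adjusted p = 0.0334). Whether the week 8 difference of Plin5 differs from those of other weeks was not tested for single weeks, and the contrast of early against late weeks did not pass for it.

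Cidea encodes the CIDE protein known from brown fat, and it was nearly absent from CD liver. At week 4 the CD livers held 0, 0, 0.04 and 0.08 FPKM and the HFD livers 0.04, 0, 0 and 0.04 FPKM. At week 8 CD remained at 0.15 FPKM or less, and HFD reached 34.0, 5.42, 5.72 and 0.68 FPKM. With 3 libraries at 1 FPKM or more, Cidea was not tested at week 8. At week 12 CD was 0.13, 1.5, 0.07 and 0.03 FPKM and HFD 28.6, 28.5, 13.0 and 23.7 FPKM (4.14 ± 0.34, adjusted p = 0.00137). At week 16 CD was 0.28, 0.20, 0.14 and 0.13 FPKM and HFD 59.6, 60.6, 46.1 and 35.7 FPKM (5.41 ± 0.16, adjusted p = 1.01e-07). At week 20 CD was 0.10 FPKM or less and HFD 18.6, 43.3, 35.7 and 20.0 FPKM (4.74 ± 0.25, adjusted p = 3.94e-05). The HFD mice were above every CD mouse of the same week from week 12 on, and the calls of weeks 12, 16 and 20 were made in 8 of 8 fits that left out 1 mouse.

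At week 24 Cidea reached its highest levels, 74.4, 36.5, 77.9 and 86.3 FPKM in HFD, while 1 CD mouse, CD605, stood at 11.8 FPKM and the other 3 CD mice at 0.03, 0.93 and 1.81 FPKM. The groups did not overlap (4.51 ± 0.72, adjusted p = 0.0387). The call was lost without CD601, CD606, CD608, HFD611, HFD614, HFD616 or HFD617 (adjusted p up to 0.133), and without CD605 the adjusted p was 0.00371. Between weeks 4 to 12 and weeks 16 to 24, the diet effect of Cidea in liver had an early minus late difference of -2.59 ± 0.43 (adjusted p = 0.00162, background 0.138% called lower), the 1 call among the 10 genes. Since Cidea entered the fit of 48 livers through HFD, this describes the rise of the HFD livers over the weeks. For Cidec that contrast was -1.30 ± 0.45 (adjusted p = 0.371).

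Cidec (chromosome 6, 113424634 to 113435760, minus strand) encodes the CIDE protein that enlarges droplets in white fat. At week 4 it was at 0.51 to 1.70 FPKM in CD and 0.62 to 1.02 FPKM in HFD livers. At week 8 CD was 1.00, 0.40, 0.76 and 0.40 FPKM and HFD 47.8, 35.8, 40.7 and 3.66 FPKM, which made a ratio of means of 50.0. The lowest HFD value, of HFD217, was still above the highest CD value, and the difference was 3.91 ± 0.71 (adjusted p = 0.0177). The call was lost without CD205, CD207, CD208, HFD211, HFD212 or HFD213 (adjusted p up to 0.0576), and without HFD217 the adjusted p was 6.58e-06. At week 16 CD was 1.39, 1.64, 0.57 and 2.80 FPKM and HFD 24.0, 47.2, 35.5 and 54.0 FPKM (3.99 ± 0.31, adjusted p = 0.0003). At week 20 CD was 0.67, 0.22, 1.06 and 1.90 FPKM and HFD 33.7, 39.0, 67.6 and 12.7 FPKM (4.18 ± 0.48, adjusted p = 0.0089). These 2 calls were made in 8 of 8 fits that left out 1 mouse.

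At week 12 Cidec was at 0.73, 1.79, 1.17 and 1.22 FPKM in CD and 52.9, 20.2, 7.95 and 39.0 FPKM in HFD (3.53 ± 0.53, adjusted p = 0.0132), a call lost without CD307 or CD308 (adjusted p up to 0.0522). At week 24 CD was 0.94, 10.3, 6.69 and 2.07 FPKM and HFD 35.4, 22.9, 50.5 and 57.1 FPKM. The groups were apart, but the difference of 3.07 ± 0.57 did not pass (adjusted p = 0.0622) and passed without CD605 (adjusted p = 0.0334). Together, Cidea and Cidec made up a median of 0.126% of the summed FPKM of the 10 genes in HFD livers at week 4. The median was 3.21% and 5.26% at weeks 8 and 12, 8.91% and 6.58% at weeks 16 and 20, and 12.3% at week 24. In CD livers the medians of the 6 weeks were 0.0892% to 0.519%.

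Cideb (chromosome 14, 55754052 to 55758424, minus strand) is the CIDE gene of hepatocytes. It was abundant on both diets, at 210.6 ± 27.7 FPKM in CD and 247 FPKM in HFD, and its rise was small (0.22 ± 0.04, adjusted p = 5.56e-05). At week 8 the CD livers ranged from 210 to 250 FPKM and the HFD livers from 254 to 332 FPKM, and at week 12 from 161 to 230 FPKM and from 236 to 271 FPKM. The groups were apart at both weeks, with adjusted p = 0.0732 and 0.0534, which passed without HFD217 (0.0186) and without CD304 (0.0149). At week 16 it was called without HFD411 (adjusted p = 0.0388).

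Pnpla2 (chromosome 7, 141455188 to 141460743, plus strand), the lipase gene, was at 41.1 ± 16.3 FPKM in CD and 37.2 FPKM in HFD livers and was called at 0 of 6 weeks. Its largest weekly difference was at week 4, with 42.6 to 80.6 FPKM in CD and 39.6 to 55.0 FPKM in HFD (-0.41). G0s2, on chromosome 1, encodes an inhibitor of ATGL. Its row covers 193241838 to 193273826, wider than the RefSeq gene at 193272160 to 193273188. G0s2 varied widely within groups. At week 8 CD ranged from 146 to 417 FPKM and HFD was at 402.84, 428, 392 and 152 FPKM (0.62 ± 0.43, adjusted p = 0.438). At week 24 CD was at 53.2, 210.9, 415.79 and 134 FPKM, a wider range than the 136 to 162 FPKM of HFD.

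Hilpda (chromosome 6, 29272488 to 29275449, plus strand), a hypoxia-inducible gene whose product inhibits ATGL, rose from 2.13 ± 0.752 FPKM in CD to 4.32 FPKM in HFD. At week 16 CD was 2.53, 1.73, 1.67 and 2.06 FPKM and HFD 6.41, 3.55, 3.17 and 3.82 FPKM, apart and called (0.78 ± 0.18, adjusted p = 0.0293). The call was lost without CD403, CD405, CD407, HFD414 or HFD418 (adjusted p up to 0.0728). At week 20 CD was 2.51, 1.20, 2.04 and 2.43 FPKM and HFD 5.27, 4.32, 14.7 and 3.35 FPKM. The groups did not overlap, but HFD517 stood above the rest and the difference did not pass (1.21 ± 0.37, adjusted p = 0.143).

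Counted by groups that do not overlap, with HFD higher, the members were 5 of 9 at week 8 (background 11.4%) and 4 of 10 at week 12 (14.6%). They were 5 of 10 at week 16 (11.9%), 6 at week 20 (6.58%) and 2 at week 24 (8.14%). These counts also include genes tested only through the HFD livers, and the 2 at week 24 were Cidea and Cidec. For such genes the separation describes the HFD livers and adds no support.

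**Figure D2:**
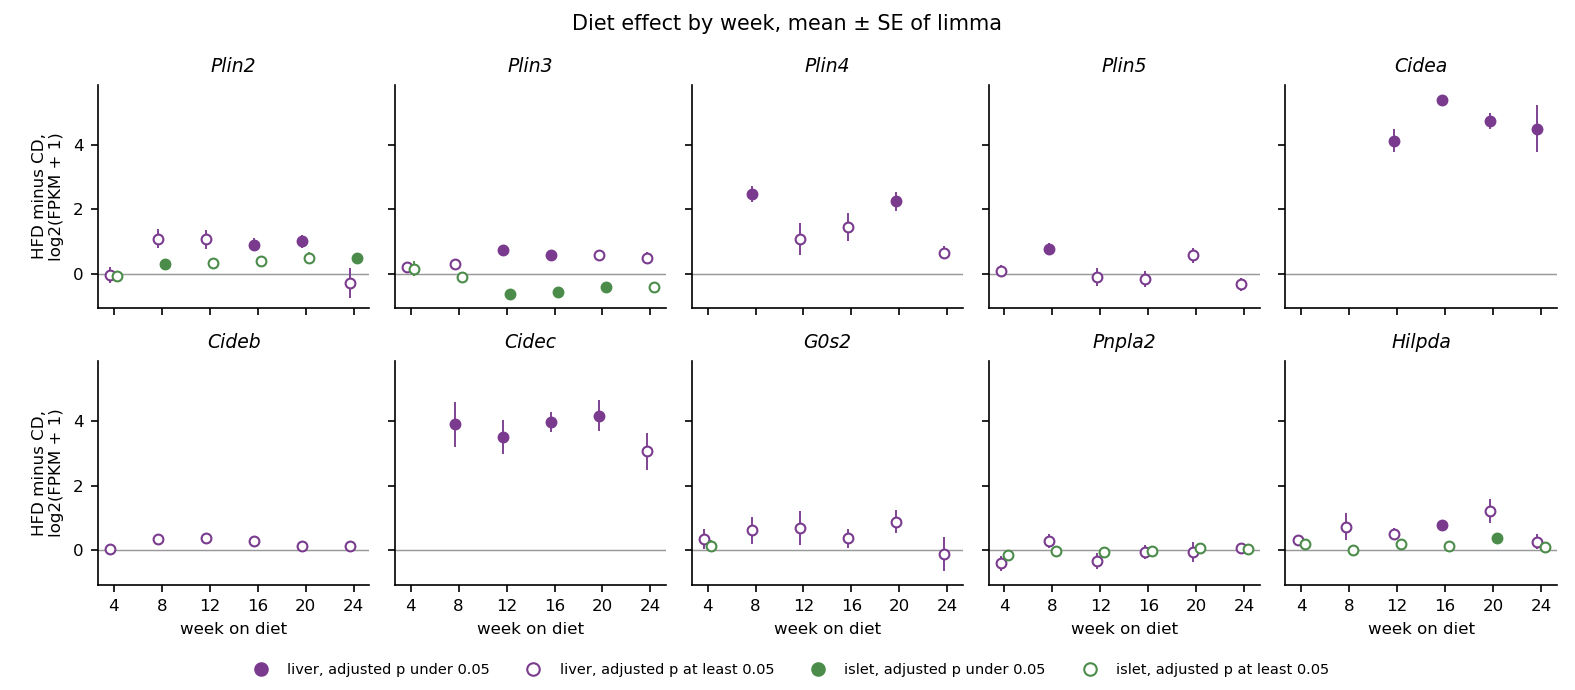
HFD minus CD difference on the log2(FPKM + 1) scale against week on diet for each of the 10 genes, in liver (purple) and islets (green), with bars of 1 standard error and filled points at an adjusted p under 0.05. Cidea and Cidec in liver lie between 3.07 and 5.41 at weeks 12 to 24, Plin3 lies above 0 in liver and below 0 in islets from week 8 on, and untested weeks have no point.

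Other cell types were read from their markers in the same livers. Of 7 adipocyte markers, Adipoq, Plin1, Lep, Retn and Ucp1 were under 0.2 FPKM in all 48 livers, and the summed list was 1.27 to 8.03 FPKM in CD and 2.91 to 30.7 FPKM in HFD. By medians, Cfd (adipsin) made up most of the sum in HFD livers from week 8 on, at 0.39 to 28.7 FPKM. In CD livers Cfd was 0 to 6.68 FPKM (median 0.17 FPKM), highest in CD605, and Adrb3 made up most (median 1.9 FPKM). Adrb3 also made up most in HFD livers at week 4 (median 5.13 FPKM, Cfd 0.095 FPKM). The 2 tested markers, Cfd and Adrb3, were both called higher in HFD. Against a background of 35.8% called higher, 7 of 8 macrophage markers were higher in HFD (summed 61.6 to 193 FPKM in CD and 73.3 to 366 FPKM in HFD). Of 6 stellate cell or fibroblast markers 6 were (5.53 to 35.1 FPKM and 9.59 to 82.3 FPKM). Of 6 endothelial markers 2 were, near the background. Of 8 hepatocyte markers 3 were called lower. The part of these cell types in the levels of the droplet genes was not tested.

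Single mice moved in many members at once. HFD217 was the lowest of its group of 4 in 7 of the 10 genes, HFD316 in 8 and HFD614 in 7, and of the CD mice CD601 in 9 and CD208 in 7. CD306 and HFD313 were each the highest of their group in 7 genes, and the week 24 mice CD605 in 6 and CD606 in 4. Ranks over all genes were not taken, so a shift of the whole library cannot be told apart from one of these genes. To describe this, the mean of the 4 mice of a group was taken off each value, and what remained of Plin2 was set against those of the other 9 genes over 48 livers. Permutation tests within groups (100000 draws, two-sided) were adjusted over the 9 relations.

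G0s2 followed Plin2 most closely (r = 0.682, rho = 0.614, adjusted p = 0.000225), and then Hilpda (r = 0.549, rho = 0.56, adjusted p = 0.000225). Without CD606 and CD601, the mice farthest out in Plin2, r was 0.578 for G0s2 and 0.482 for Hilpda. Within the diets, r was 0.791 in CD and 0.454 in HFD for G0s2, and 0.797 and 0.476 for Hilpda. For Cidec r was 0.526, for Plin3 0.482, for Cidea 0.459, for Plin4 0.442 and for Plin5 0.395 (adjusted p from 0.00339 to 0.0305). Cideb (r = 0.319, adjusted p = 0.0573) and Pnpla2 (r = -0.0855, adjusted p = 0.56) did not pass. Over 10878 other genes of liver the median r with Plin2 was 0.0956, 1.8% had an r of 0.5 or more, and 0.12% had one as high as G0s2. The values share their libraries, so that depth and RNA quality act on both genes of a pair.

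**Figure D3:**
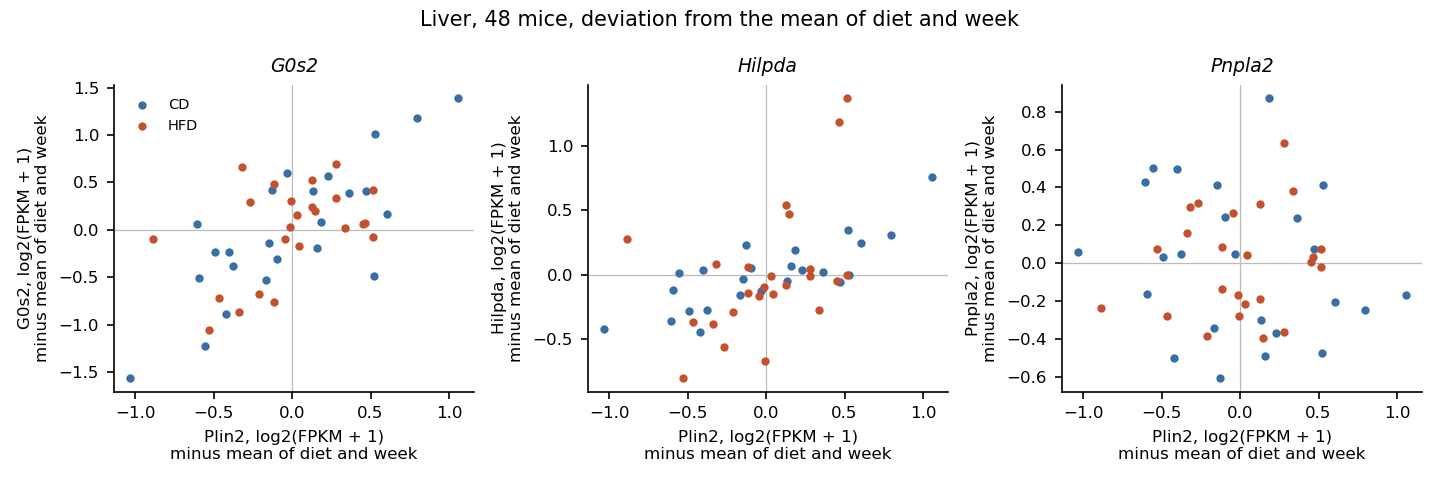
Deviation of each of 48 livers from the mean of its diet and week in Plin2 (horizontal axis) against the same deviation in G0s2, Hilpda and Pnpla2 (vertical axis), both on the log2(FPKM + 1) scale, CD in blue and HFD in orange. The points of G0s2 and Hilpda rise with Plin2 (r = 0.682 and 0.549), while those of Pnpla2 show little slope (r = -0.0855).

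Chow livers also changed between weeks. An F test over the 6 CD means called 6 of the 10 genes, near the background of 55%, so that the count is not particular to these genes. Plin4 moved most, from 0.950 ± 0.625 FPKM at week 4 to 5.37 ± 3.32 FPKM at week 12, 2.50 ± 1.62 FPKM at week 20 and 9.85 ± 2.66 FPKM at week 24 (SD, n = 4; range of means 2.49 log2 units, adjusted p = 7.48e-06). Plin2 (range 1.21, adjusted p = 0.0268), Plin5 (1.01), Pnpla2 (1.04), Plin3 (0.44) and Cideb (0.38) were also called. The Plin2 call was lost without CD605 or CD606 (adjusted p up to 0.258), that of Pnpla2 without CD103 or CD104 (up to 0.0923) and that of Plin3 without any 1 of 12 mice (up to 0.0989). Age, day of collection and weeks on chow cannot be told apart here.

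In islets the picture was narrower. The 5 genes Cidea, Cideb, Cidec, Plin4 and Plin5, stayed under the filter and were not tested. Averaged over the weeks, 2 of the 5 tested genes rose on HFD (background 16.6%) and 1 fell (22%). Plin2 rose by 0.32 ± 0.06 (adjusted p = 9.21e-05), from 9.96 to 13.0 FPKM, and Hilpda by 0.17 ± 0.03 (adjusted p = 0.000155), from 4.74 to 5.45 FPKM. Plin3 fell, with a difference of -0.32 ± 0.06 (adjusted p = 4.37e-05), from 2.88 to 2.16 FPKM. G0s2 (0.03, adjusted p = 0.799) and Pnpla2 (-0.02 ± 0.03, adjusted p = 0.577) did not pass. Cell type markers were read in the same islets, against the same backgrounds of 16.6% higher and 22% lower. Of 7 tested macrophage markers 3 were called higher and 0 lower (summed 48.8 to 105 FPKM in CD and 42.3 to 138 FPKM in HFD). Of 8 beta cell markers 4 were higher and 1 lower, and of 7 hepatocyte markers 1 higher and 3 lower. Of 8 acinar markers 0 were higher and 2 lower, near the background. Of 5 tested endothelial markers 2 were higher and 2 lower, and of 5 tested stellate cell or fibroblast markers 1 was higher and 1 lower. Their part in the differences of Plin2, Hilpda and Plin3 was not tested.

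**Figure D4:**
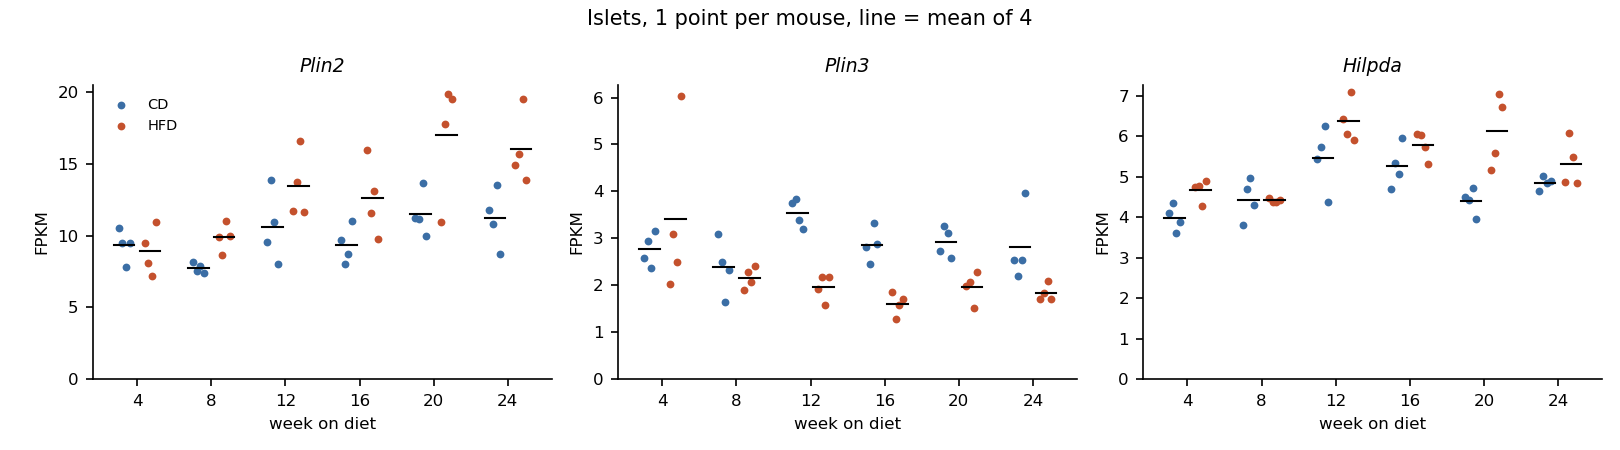
Islet levels of Plin2, Plin3 and Hilpda in FPKM against week on diet, with 1 point per mouse (CD blue, HFD orange) and a line at the mean of 4. Plin2 of HFD mice lies above CD at weeks 8 and 24, Plin3 of HFD mice lies below CD at weeks 12 to 24, and the high HFD point of Plin3 at week 4 is HFD118 at 6.04 FPKM.

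Islet Plin2 at week 4 was 10.52, 9.52, 7.83 and 9.49 FPKM in CD and 9.47, 8.10, 7.16 and 11.0 FPKM in HFD, a full overlap. At week 8 CD was 8.17, 7.52, 7.92 and 7.37 FPKM and HFD 9.92, 8.67, 11.0 and 10.0 FPKM. The groups were apart and the difference was called (0.32 ± 0.08, adjusted p = 0.038, background 0.602% higher), but the call was lost without CD203, CD205, CD207, CD208, HFD211 or HFD213 (adjusted p up to 0.0987). At week 24 CD was 11.8, 10.8, 13.5 and 8.70 FPKM and HFD 14.9, 15.7, 19.6 and 13.9 FPKM, called at 0.49 ± 0.13 (adjusted p = 0.0305, background 6.57%). That call was lost without CD601, CD605, CD608, HFD614 or HFD616 (adjusted p up to 0.0911). At weeks 12, 16 and 20 the differences were 0.33, 0.38 and 0.50 and did not pass (adjusted p = 0.237, 0.119 and 0.114). Plin2 was called at week 16 without HFD418 (adjusted p = 0.0338) and at week 20 without HFD511 (0.69, adjusted p = 0.0029). With the insulin genes left out of the FPKM sums, which moved the median of all genes from 0.01 to 0.26 at week 12 and from 0.01 to 0.19 at week 16, Plin2 was called at both weeks (0.59 and 0.57), but its week 8 call was lost (0.31, adjusted p = 0.0512). The week 8 call was also lost with no filter (adjusted p = 0.0714), with no trend (0.0527) and with all 12 groups in one fit (0.182).

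Islet Plin3 moved opposite to liver Plin3. At week 12 CD was 3.76, 3.84, 3.4 and 3.2 FPKM and HFD 1.92, 2.18, 1.57 and 2.18 FPKM (-0.62 ± 0.12, adjusted p = 0.00112, background 2.35% lower). At week 16 CD was 2.82, 2.46, 3.32 and 2.87 FPKM and HFD 1.85, 1.27, 1.58 and 1.70 FPKM (-0.57 ± 0.10, adjusted p = 0.00175, background 5.15%). The groups did not overlap at either week, and both calls were made in 8 of 8 fits that left out 1 mouse and with the insulin genes left out (-0.41 and -0.44). At week 20 CD was 2.73, 3.27, 3.11 and 2.58 FPKM and HFD 1.98, 2.06, 1.52 and 2.28 FPKM (-0.41 ± 0.10, adjusted p = 0.0475, background 3.21%). At week 24 the groups were again apart (CD 2.19 to 3.96 FPKM, HFD 1.71 to 2.09 FPKM) without a call (-0.41 ± 0.12, adjusted p = 0.0552). Acinar markers moved in the same libraries, their sum being 35037 to 83677 FPKM in CD and 6735 to 33611 FPKM in HFD at week 12, 16493 to 31325 and 3931 to 12339 FPKM at week 16, and, the other way round, 3848 to 10398 and 9445 to 25246 FPKM at week 20. Their part in the Plin3 difference was not tested.

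Islet Hilpda was called at week 20, with 4.51, 4.42, 4.72 and 3.97 FPKM in CD and 5.17, 5.58, 7.05 and 6.73 FPKM in HFD (0.39 ± 0.10, adjusted p = 0.0479, background 1.53% higher). The groups were apart. With the insulin genes left out, Hilpda was also called at weeks 12 and 16 (0.45 and 0.29), where the median of all genes was 0.26 and 0.19. With them kept, its differences were 0.20 and 0.12, and the median of all genes was 0.01 at both weeks. These 2 calls thus came with a shift of all genes. The week 20 calls of Plin3 and Hilpda were each lost without any of CD501, CD502, CD505, CD507, HFD516, HFD517 or HFD518 (adjusted p up to 0.133 for Plin3 and 0.143 for Hilpda). At week 4, 0 of the 5 genes and 0% of all genes were called by limma, while 1 member and 854 genes had an unadjusted p under 0.05. The contrast of early against late weeks called 0 of 5 in islets (2 at an unadjusted p under 0.05, Plin2 and Plin3), against 3.16% of all genes. Over the weeks in CD islets 4 of 5 were called, near the background of 77.5%. The ranges of means were 0.45 for Pnpla2, 0.36 for Hilpda, 0.66 for G0s2 and 0.51 for Plin2. The call of G0s2 was lost without CD103, CD106, CD605, CD606 or CD608 (adjusted p up to 0.0850) and that of Plin2 without CD205, CD207, CD208, CD505 or CD606 (up to 0.0768).

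The 5 genes under the filter were at 0.49 FPKM or less in the islets, apart from HFD118 at week 4, which held Cideb at 3.03 FPKM and Cidec at 1.48 FPKM. The same library had Apoa1, of the hepatocyte marker list, at 109 FPKM, against 0.08 to 17.95 FPKM in the other 47 islet libraries. Apob of that list was at 2.88 FPKM against up to 0.8 FPKM, and Alb at 4.24 FPKM against up to 48.84 FPKM. The adipocyte markers Adipoq and Cfd were at 0. Of the tested members, Plin3 (6.04 FPKM against up to 3.96 FPKM) and G0s2 (2.44 FPKM against up to 1.71 FPKM) were also highest in this library. With no filter on low values, Cidea (-0.17, adjusted p = 1.6e-05), Plin4 (-0.06, adjusted p = 0.00325) and Plin5 (-0.04, adjusted p = 0.00177) were called lower in HFD islets, at levels too low for the 2 decimals of the table to carry a fold change.

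The diet effects of liver and islets were compared directly in a fit of all 96 libraries. Of the 10 genes, 5 had a higher effect in liver (background 35.5%), namely Cidea by 3.76 ± 0.22, Cidec by 3.07 ± 0.23, Plin4 by 1.38 ± 0.15, Plin3 by 0.81 ± 0.09 (adjusted p = 2.68e-12) and Hilpda by 0.47 ± 0.13 (adjusted p = 0.00301). For the first 3, and for Plin5 and Cideb below, the islet effect is that of a gene near 0 FPKM. For Plin2 the difference of 0.30 ± 0.16 did not pass (adjusted p = 0.108), and it did without week 24 (0.52, adjusted p = 0.00332). It also passed without CD606 (adjusted p = 0.0499). G0s2 (0.44), Plin5 (0.18), Cideb (0.15) and Pnpla2 (-0.06) did not pass with all mice. Cideb was called without HFD118, whose islets held it at 3.03 FPKM (0.25, adjusted p = 4.67e-05). The other islet libraries held Cideb at 0.38 FPKM or less, so this call describes its rise in liver (0.22) and adds no support of its own. G0s2 was called without CD306, CD606 or HFD217 (lowest adjusted p = 0.0350).

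Levels in CD mice were also compared between the tissues. Liver was higher in 8 of 10 genes (background 28.5%), from Cideb (7.67 log2 units), G0s2 (6.36), Plin5 (4.58) and Plin2 (4.31) to Plin3 (2.20), Plin4 (1.89), Pnpla2 (1.13) and Cidec (1.12). Cideb, Plin5, Plin4 and Cidec entered this test through liver alone, since 0 CD islet libraries reached 1 FPKM (means 0.0333, 0.0546, 0.0875 and 0.0625 FPKM). The size of their differences is set by the 1 FPKM added before the log, so that they are a description and cannot be ranked against the rest. Hilpda was the 1 gene lower in liver (-0.90, background 66.5% lower), and Cidea did not differ past the threshold (0.06, adjusted p = 0.704). The median of all genes was -0.64, and with median ratio scaling -0.08, with 8 higher and 1 lower under both.

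In CD liver the order of mean levels per length was Plin2, Cideb (210.6 ± 27.7 FPKM), G0s2 (166 ± 96.8), Pnpla2 (41.1 ± 16.3), Plin5 (26.0 ± 10.7), Plin3 (16.9 ± 3.01), Plin4 (4.22 ± 3.75), Hilpda (2.13 ± 0.752), Cidec (1.74 ± 2.24) and Cidea (0.738 ± 2.41; SD, n = 24). Neighbours in this order overlapped, and Plin3 above Plin4 was the 1 pair ordered alike in all 24. In HFD liver Cidea (30.6 FPKM) and Cidec (30.5 FPKM) stood above Plin5 (27.3), Plin3 (24.0) and Plin4 (11.6) in the mean over all weeks. This order did not hold at each week. The mean of Cidea was below that of Plin5 at week 4 (0.02 and 23.0 FPKM), week 8 (11.4 and 31.5 FPKM) and week 12 (23.4 and 29.4 FPKM), and above it from week 16 on. Cidec was at 0.81 FPKM at week 4 and above Plin5 in the mean from week 8 on. In CD islets the order was Pnpla2 (17.2 ± 2.45 FPKM), Plin2 (9.96 ± 1.95), Hilpda (4.74 ± 0.672), Plin3 (2.88 ± 0.556) and G0s2 (0.797 ± 0.396), each above the next in all 24 libraries.

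**Figure D5:**
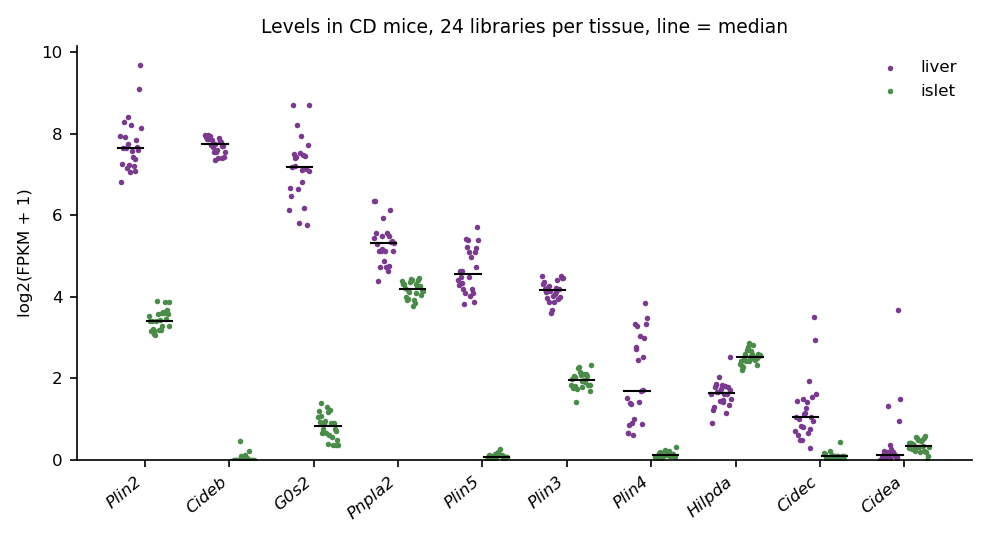
Levels of the 10 genes in CD mice as log2(FPKM + 1), in order of their mean in liver, with 24 liver (purple) and 24 islet (green) libraries per gene and a line at the median. Cideb and G0s2 show gaps of 7.67 and 6.36 units on this scale, and Hilpda is the gene with higher points in islets.

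Other genes of droplet biology were followed as a list of 26. In liver 24 were tested, and on average over the weeks 12 were called higher (background 35.8%) and 1 lower, with a median difference of 0.16 against 0.08 for all genes. Among them were Fitm1 (0.93, from 28.5 to 55.9 FPKM) and Fitm2 (0.59, 10.1 to 15.7), which act in droplet formation at the endoplasmic reticulum, and Gpat3 (0.86, 2.78 to 5.65), an acyltransferase of glycerolipid synthesis. The droplet enzyme genes Hsd17b11 (0.55, 111 to 161 FPKM) and Hsd17b13 (0.38, 258 to 346 FPKM) and the monoglyceride lipase gene Mgll (0.38, 72.6 to 95.1 FPKM) also rose. Aup1, of a droplet protein that recruits ubiquitin enzymes, was the gene called lower (-0.11). In islets 9 of 23 were called higher (background 16.6%) and 3 lower (22%), with a median of 0.04 against -0.01 for all genes, with Hsd17b11 (0.30, 19.8 to 24.7 FPKM) and Pnpla3 (0.24) higher and Vps13c (-0.20) and Mgll (-0.15) lower.

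Targets of PPAR, the fatty acid-sensing nuclear receptors that are known to act on several droplet genes, were followed as a list of 20. In liver 17 were called higher on average (background 35.8%) and 0 lower, with a median of 0.47, led by the fatty acid transporter gene Cd36 (2.12), Mogat1 (1.78), Vnn1 (1.65) and Fgf21 (1.58). By week, 0 of 17 tested were called at week 4 (background 0.0506%) and 18 of 20 at week 8 (6.17%). Of the same 20, 5 were called at week 12 (9.42%) and 3 at week 16 (6.74%), then 7 at week 20 (1.73%) and 2 at week 24 (0.65%). In islets 3 of 15 were higher (16.6%), near the background, and 5 lower (22%). Of 13 targets of HIF, 2 of 11 tested in liver were higher, fewer by share than the background of 35.8% (Egln3 by 0.25 and Adm by 0.20) and 1 lower (Kdm3a, -0.15), and in islets 2 of 11 were higher (background 16.6%) and 1 lower (22%).

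For the 3 genes with the largest effects, the liver genes most like them over the 12 means of diet and week were sought among 10879 genes. Cidea was followed most closely by Slc35f2 (r = 0.991), Pgm2 (0.978) and Sdcbp2 (0.977), Cidec by Cgref1 (0.992), Arsb (0.983) and Slc35f2 (0.981), and Plin4 by Nln (0.990), Acot2 (0.981) and Slc35f5 (0.978). Cidea and Cidec had an r of 0.973 with each other. Slc35f2 rose from 0.145 to 1.41 FPKM, Cgref1 from 0.824 to 3.14 FPKM and Acot2, a mitochondrial acyl-CoA thioesterase gene, from 4.30 to 9.51 FPKM. These r describe 12 points that share the contrast of the diets and carry no test.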

How the data were processed

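RNA of islets and liver of the same 48 mice was selected for poly(A), primed with random hexamers and sequenced on a BGISEQ-500. FPKM values were deposited by the authors for each library, rounded to 2 decimals, with 0 pairs of identical libraries. The submitters' processing notes name HISAT2 2.0.4, Bowtie2 2.2.5, RSEM 1.1.12, DESeq2 and the build GRCm38.p5, and the role of each is not given in the sources used here. Read counts are not part of it, and the depth behind each value is unknown. Its columns of fold changes, p-values and q-values hold the authors' own comparisons and were not used. Of 21990 genes, 20155 had values.

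Libraries were grouped by tissue, diet and week from their labels. Levels were taken as log2(FPKM + 1), and HFD was compared with CD by limma, with its trend and robust options on. It was fitted in each tissue and week, in the 48 libraries of a tissue (mean effect over 6 weeks, early against late weeks, and an F test over the CD weeks) and in all 96 libraries (liver against islets). A gene was tested where 4 or more libraries of the fit reached 1 FPKM (3 of 7 where 1 of 8 was left out). Each adjusted p of a level or a difference is from limma, with Benjamini-Hochberg adjustment over all genes tested, and those of the relations to Plin2 are from permutation tests, adjusted over 9 relations. The scripts were tested on simulated data. The 10 genes, the lists of other genes and the relation to Plin2 were chosen with earlier results of these data known. Named beyond the 10 genes are list genes called in the mean effect of a tissue (at most 8 per list with the largest effects) and the 3 genes nearest in pattern to each of 3 members. The tissues of a mouse were paired by its identifier, and the correlation of their deviations from the group means was -0.0519 to 0.239 with a median of 0.117. Alternatives were a pseudocount of 0.1, no filter, median ratio scaling, the insulin genes left out, limma with no trend, all 12 groups in one fit, each week or mouse left out, and the mouse as a block. The software was R 4.3.3, limma 3.58.1, Python 3.11.15, numpy 2.4.6, pandas 2.3.3, scipy 1.17.1 and matplotlib 3.10.9.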

Additional observations from a re-analysis of the deposited data

Results flagged for a closer look

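In 7 of 180 groups of 4 mice, 1 mouse stood far from the other 3, where chance gives about 1 in 20 groups. In liver these were Plin3 in the CD mouse CD601 at week 24 (14.93 FPKM, the others 20.86 to 21.70 FPKM), Plin5 in CD304 at week 12 (15.95 FPKM, the others 36.06 to 41.73 FPKM) and Plin5 in HFD112 at week 4 (34.53 FPKM, the others 17.99 to 20.06 FPKM). Cidea in CD306 at week 12 was 1.5 FPKM, with the others at 0.03 to 0.13 FPKM, and this liver library also carried beta cell markers. The mouse HFD217 at week 8 was low both in Cidec (3.66 FPKM, the others 35.81 to 47.83 FPKM) and in G0s2 (152.34 FPKM, the others 391.7 to 427.79 FPKM). In islets, Pnpla2 in HFD511 at week 20 was 17.83 FPKM, with the others at 20.87 to 21.24 FPKM.

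By limma tests of the difference itself over 96 libraries, the diet effect was higher in liver than in islets for Cidea (3.76), Cidec (3.07), Plin4 (1.38), Plin3 (0.81) and Hilpda (0.47). Over 48 livers, the early effect of Cidea was lower than the late one (-2.59). Cidea, Cidec and Plin4 were under 1 FPKM in CD islets, and Cidea reached 1 FPKM in 3 of 24 CD livers, so that these values describe the HFD livers.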

How the results depend on the processing

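Over 656 single values of the 10 genes under the alternatives, 570 kept their side of the threshold, 39 fell out of the calls, 47 entered them and 0 calls reversed direction. Values that were not called could change sign. Plin2 at liver week 24 ran from -0.63 to 0.07 with 1 mouse left out. Of 227 counts of called members, 165 stayed within 1.5 times. With all 12 groups of a tissue in one fit, the count was 5 at liver week 8, 6 at liver week 12, 3 at liver week 24 and 0 at islet week 8. At liver week 24 it was 0 with a pseudocount of 0.1 and 2 with no trend, and at islet week 8 it was 0 with no trend. With no filter, islet counts were 0 at weeks 8, 20 and 24, 2 at weeks 12 and 16, 6 for the mean effect and 1 for early against late weeks. With the insulin genes left out they were 0 at week 8, 3 at weeks 12 and 16, and 2 at week 24. Median ratio scaling gave 2 at islet weeks 16 and 24, and a pseudocount of 0.1 gave 1 at islet week 20. The cause was not tested. Leaving out 1 mouse at a time gave 1 to 6 calls at liver week 8, 1 to 5 at week 12, 3 to 6 at week 16, 3 to 5 at week 20 and 0 to 2 at week 24. In islets it gave 0 to 1 at weeks 8 and 24, 1 at week 12, 1 to 2 at week 16 and 0 to 3 at week 20. The mean effect kept 7 to 8 calls in liver and 3 in islets, the effect of liver against islets 5 to 7, and the CD weeks 4 to 8 in liver and 2 to 5 in islets. With the mouse as a replicate block, the same 5 genes were called for the effect of liver against islets, the levels kept the same 9 calls, and no call changed. Without CD306 and CD407, chosen after seeing the data, 8 genes were called in the liver mean. The share of all genes called under each setting is not given beside the counts of this section. A change in a count can therefore not be told apart from a change over all genes. The FPKM table limits values under 1 FPKM to 2 digits, and no counting error could be given.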
